A study of Caenorhabditis elegans with 20 samples.

Results

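H3K36me3 was compared between C. elegans worms that carry the oncohistone H3.3K27M and wild-type worms, bin by bin along the genome. The comparison used 4 of the 20 libraries of the series: 1 H3K36me3 immunoprecipitated (IP) library and 1 input library from each strain. They were chosen by antibody and strain, and their bins were matched by chromosome and start, which gave 10024 bins of 10 kb, 8253 on the 5 autosomes and 1771 on X. The mutant group was strain FAS58, whose H3.3 gene his-72 carries the allele uge40[K27M] on chromosome III, and the control group was N2, without it. Both were young adults kept at 20 °C on bacteria-seeded plates. Their chromatin came from total nuclei, a preparation rich in germ-cell nuclei but not free of somatic ones, so that a shift of the mark within cells and a shift in the mixture of cells cannot be told apart. Native ChIP-seq was used, in which chromatin is cut with MNase and precipitated without crosslinking, with the antibody ab9050 from Abcam for H3K36me3. No spread between replicates can be given with 1 library per group, and the values below are descriptions without a test.

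H3K36me3 is laid down over the bodies of transcribed genes and, in the worm germ line, also maintains the memory of germ-line transcription. H3K27me3, made by Polycomb repressive complex 2 (PRC2), marks silent chromatin, and on autosomes the marks occupy alternating domains, while the germ-line X is poor in H3K36me3 and rich in H3K27me3. Nucleosomes with K27M lack the lysine that PRC2 methylates and inhibit PRC2. The question put to these libraries was whether the active mark moves when the repressive mark is redistributed.

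The main values were log2 of IP over input in 10 kb bins, as deposited, and a change is the value in H3.3K27M minus that in wild type. Whole reads recovered from the input-subtracted tracks gave a median depth per 10 kb bin of 3945.5 IP and 2442 input reads in H3.3K27M, against 4322 IP and 4003 input reads in wild type. Such depths add up values of 100 bp bins, in which a read can recur, and are not counts of separate reads. Counting error of the change had a median of 0.049 on the log2 scale, which is a lower limit, since neighbouring bins can share reads. Any of the 4 libraries had under 100 reads in 36 bins. Each track was scaled to the same number of reads, so that values show where the mark lay and not how much of it a strain held, and a lower value in one place can come with a higher one elsewhere.

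The overall map of the mark was shared by both strains, with correlations over the 10024 bins of 0.83 by Pearson and 0.83 by Spearman. The contrast between rich and poor regions, however, was larger in H3.3K27M. The SD over autosomal bins was 0.62 in H3.3K27M and 0.44 in wild type, and the range from the 5th to the 95th percentile was 1.97 in H3.3K27M and 1.40 in wild type. On X the SD was 0.43 in H3.3K27M and 0.37 in wild type. The least-squares slope of H3.3K27M on wild-type values was 1.19 over autosomal bins and 0.96 over X bins. The change followed the IP libraries: its Pearson r was 0.95 with the change of IP reads and -0.31 with the change of input reads, and the SD over bins was 0.36 for the change of IP against 0.085 for that of input.

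The median change was -0.04 over all bins, -0.08 over the autosomes and 0.07 on X, and 0.08, 0.04 and 0.19 when both tracks were centred on their own medians. Median levels were -0.13 in H3.3K27M and -0.003 in wild type on the autosomes, and -0.48 in H3.3K27M and -0.53 in wild type on X, so that X stayed the chromosome poorest in the mark in both strains. The ratio of the median X bin to the median autosomal bin was 0.79 in H3.3K27M IP reads and 0.72 in wild-type IP reads. In input reads this ratio was 0.97 in both strains. The zero point of each track is set by its scaling. Centring added 0.12 to every change, and centred medians are given below where they turn the sign of a group.

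Among the autosomes, the median change was 0.09 on chromosome III and 0.06 on chromosome I, both higher in H3.3K27M. It was -0.18 on chromosome IV and -0.13 on chromosome V, which remained below 0 when centred (-0.06 and -0.01). On chromosome II the change was -0.10, but 0.02 after centring. Levels on chromosome IV were -0.34 in H3.3K27M and -0.08 in wild type, and on chromosome III they were 0.03 in H3.3K27M and 0.06 in wild type. On chromosome III the median level was thus slightly lower in H3.3K27M, although the median of the changes of single bins was above 0.

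The lower values lay mainly in chromosome arms, taken as the outer 25% at each end. The median change was -0.18 in the 4127 autosomal arm bins and 0.01 in the 4126 bins of the centres. Levels were -0.04 in H3.3K27M and 0.11 in wild type in the arms, and -0.21 in H3.3K27M and -0.17 in wild type in the centres. The arms thus exceeded the centres by less in H3.3K27M than in wild type. The lowest median was that of the right arm of chromosome IV, at -0.44 (-0.32 after centring), with levels of -0.51 in H3.3K27M and -0.01 in wild type. The left arm of chromosome III followed at -0.27, then the right arm of V at -0.21 and the left arms of IV and II at -0.20 each. These 5 arms stayed below 0 after centring. The opposite end of the order held the centres of chromosome III (0.17) and chromosome I (0.15), where levels were 0.11 in H3.3K27M against -0.01 in wild type on III, and 0.10 in H3.3K27M against 0.004 in wild type on I. On X, the centre was higher in H3.3K27M by 0.12, while the arms were near 0 (0.01 left, -0.01 right, and 0.12 and 0.11 after centring).

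**Figure D1:**
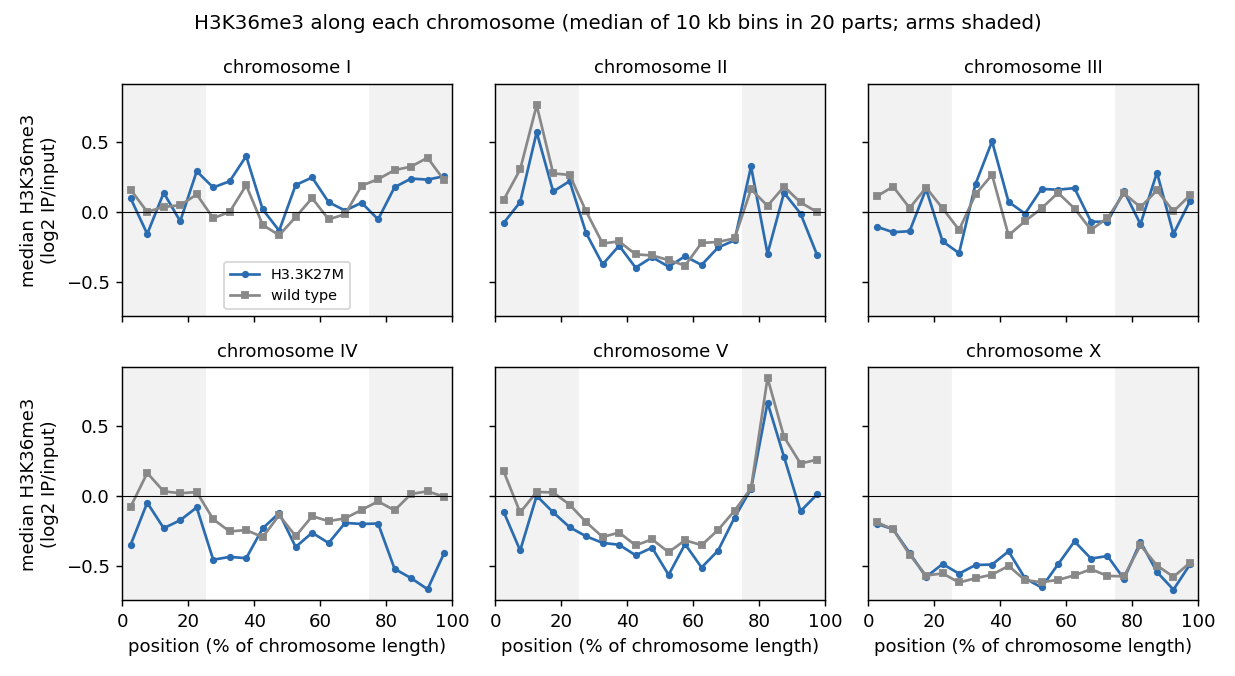
Median H3K36me3 (log2 IP over input, y axis) in 20 equal parts of each chromosome (x axis, percent of chromosome length) in H3.3K27M (blue circles) and wild type (grey squares), with the arms shaded. The H3.3K27M line lies below wild type over the right arm of chromosome IV, where the medians of a single part are as far apart as -0.66 and 0.03, and above it in 9 of the 10 central parts of chromosome I and 8 of the 10 of chromosome III.

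A difference of at least 1.5-fold, which is 0.585 on the log2 scale, was reached upwards by 57 bins, 0.569% of all, and downwards by 676 bins, 6.74% of all. After centring, these counts were 340 higher and 298 lower, so the balance between the directions depends on the zero point. With the deposited scaling, 571 of the 676 lower bins, 84.5%, lay in autosomal arms and 92 in autosomal centres. Chromosome IV held 261 of them, 38.6%, and X held 13. Of the bins in each place, 13.8% were lower by this measure in autosomal arms and 2.23% in autosomal centres. The same share was 14.9% on chromosome IV and 0.73% on X, against 6.74% over all bins. In the right arm of chromosome IV, 143 of 437 bins were lower by this measure, a share of 32.7% against 6.74% over all bins. The share was 21.8% in the left arm of III and 17.2% in the left arm of IV. The 57 higher bins lay on every chromosome, with 21 on X and from 5 to 9 on each autosome. Their share was 1.19% of X bins and 0.44% of autosomal bins, against 0.569% over all bins.

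With the deposited scaling, some lower bins formed runs and higher bins rarely did. Only 57 bins were called higher, so neighbouring calls are likelier among the lower bins, and runs were not formed after centring. The 676 lower bins fell into 453 runs, of which 329 were single bins. The longest covered 110 kb of the right arm of chromosome IV, at chrIV:15830001-15940000 (build WBcel215), where the mean H3K36me3 was -0.68 in H3.3K27M and 0.05 in wild type. Mean IP reads per bin there were 2278 in H3.3K27M and 3888 in wild type, and mean input reads were 1891 in H3.3K27M and 2997 in wild type. A run of 100 kb at chrIV:16030001-16130000 was next, at -0.86 in H3.3K27M and -0.08 in wild type. Both held a mixture of H3K27me3 states, with 5 and 4 bins that no longer exceeded input in H3.3K27M and 6 bins each that still did. The remaining 3 of the 5 longest runs lay at chrV:18330001-18390000 (mean change -0.81), chrV:19550001-19610000 (-0.75) and chrIV:16550001-16600000 (-0.81), and every bin of these had wild-type H3K27me3 above 0 and H3.3K27M H3K27me3 not above 0. Runs of 5 or more lower bins in the right arm of IV, 8 in number, spanned a stretch of 2050 kb at chrIV:14550001-16600000, singled out after its values were seen. Of its 205 bins, 105 were lower by at least 1.5-fold and 181 were below 0. The median H3K36me3 of the stretch was -0.64 in H3.3K27M and 0.01 in wild type, and its median H3K27me3 was -0.29 in H3.3K27M and 0.41 in wild type.

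The higher bins fell into 54 runs, 51 of them single bins. The 3 longer runs had 2 bins each. At chrX:11460001-11480000 the mean H3K36me3 was -0.67 in H3.3K27M and -1.39 in wild type, at chrIV:5970001-5990000 it was 0.46 in H3.3K27M and -0.24 in wild type, and at chrII:13530001-13550000 it was 1.01 in H3.3K27M and 0.40 in wild type. The other pair that completes the 5 longest consists of single bins, chrV:2380001-2390000 and chrX:230001-240000, which are described with the low-read bins below.

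Among single bins, the largest changes on the log2 scale came in part from bins with almost no reads. On chromosome V, the bin at 2410001 had 4 IP and 3 input reads in H3.3K27M and 5 and 0 in wild type, and those at 2380001 and 2450001 had at most 5 reads in any library. The bin at 8820001 had 5 IP and 24 input reads in H3.3K27M and 17 and 32 in wild type. On X, the bin at 230001 had 105 IP and 16 input reads in H3.3K27M and 80 and 37 in wild type. No change of the mark is read from these bins. The bins with more reads that stood out upwards were chrV:6170001-6180000, at 1.42 in H3.3K27M and 0.47 in wild type with 15402 IP reads in H3.3K27M and 8334 in wild type, and chrX:6420001-6430000, at 0.76 in H3.3K27M and -0.15 in wild type with 10011 IP reads in H3.3K27M and 5803 in wild type. Another, chrIV:8140001-8150000, had 0.55 in H3.3K27M and -0.37 in wild type with 6300 IP reads in H3.3K27M and 3669 in wild type. Downwards, chrIV:1550001-1560000 had -0.45 in H3.3K27M and 0.70 in wild type, with 4586 IP reads in H3.3K27M and 10633 in wild type, and its H3K27me3 was -1.83 in H3.3K27M and 0.38 in wild type. At chrII:310001-320000 the level was -0.77 in H3.3K27M and 0.39 in wild type, with 1988 IP reads in H3.3K27M and 4560 in wild type, and H3K27me3 was -0.05 in H3.3K27M and 0.19 in wild type.

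On the input-subtracted scale, in scaled reads per 100 bp, the bin farthest apart was chrI:15060001-15070000, with a mean of -159 in H3.3K27M and 6782 in wild type. This bin holds signal that could not be solved for whole reads. Without it the Pearson r of the input-subtracted tracks was 0.82 instead of 0.40. The next were chrV:6170001-6180000, at 273 in H3.3K27M and 74.8 in wild type, chrV:18710001-18720000, at -40.4 in H3.3K27M and 124 in wild type, chrIV:1550001-1560000, at -19.0 in H3.3K27M and 138 in wild type, and chrIII:170001-180000, at 46.2 in H3.3K27M and 200 in wild type.

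To ask whether H3K36me3 moved where H3K27me3 was lost, autosomal bins were sorted by the H3K27me3 tracks of the same strains, which come from other IP and input libraries. The change of input in the H3K36me3 libraries and that in the H3K27me3 libraries had a Pearson r of -0.09 over bins. A bin counted as marked where log2 of IP over input was above 0. Of the autosomal bins, 2660 were marked in wild type only (lost), 2226 in both strains (kept), 3346 in neither (never marked) and 21 in H3.3K27M only. The zero point of the H3K27me3 tracks is likewise set by their scaling, and no other zero point was tried. Kept thus means above 0 on that scale in both strains, not an unchanged amount of the mark. Median H3K27me3 was -1.11 in H3.3K27M and 0.32 in wild type in the lost bins, and 0.77 in H3.3K27M and 0.40 in wild type in the kept bins.

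Where H3K27me3 was lost, H3K36me3 was lower, not higher. Its median in the lost bins was -0.59 in H3.3K27M and -0.23 in wild type, a median change of -0.34, and 85.4% of these bins were below 0. In the kept bins it was -0.29 in H3.3K27M and -0.08 in wild type, with a median change of -0.23 and 83.9% of bins below 0. In the never marked bins the level was 0.46 in H3.3K27M and 0.23 in wild type, with a median change of 0.25 and only 16.5% of bins below 0. On X, nearly all of it marked, the change was 0.07. The signs of these 4 medians held after centring (-0.23, -0.11, 0.37 and 0.19) and after quantile normalization of the pair of tracks (-0.19, -0.14, 0.14 and 0.24). They also held in IP reads alone (-0.39, -0.16, 0.31 and 0.12), whereas input reads alone differed by at most 0.01. The gap between never marked and lost bins was 1.05 in H3.3K27M and 0.47 in wild type, and that between never marked and kept bins was 0.74 in H3.3K27M and 0.31 in wild type.

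**Figure D2:**
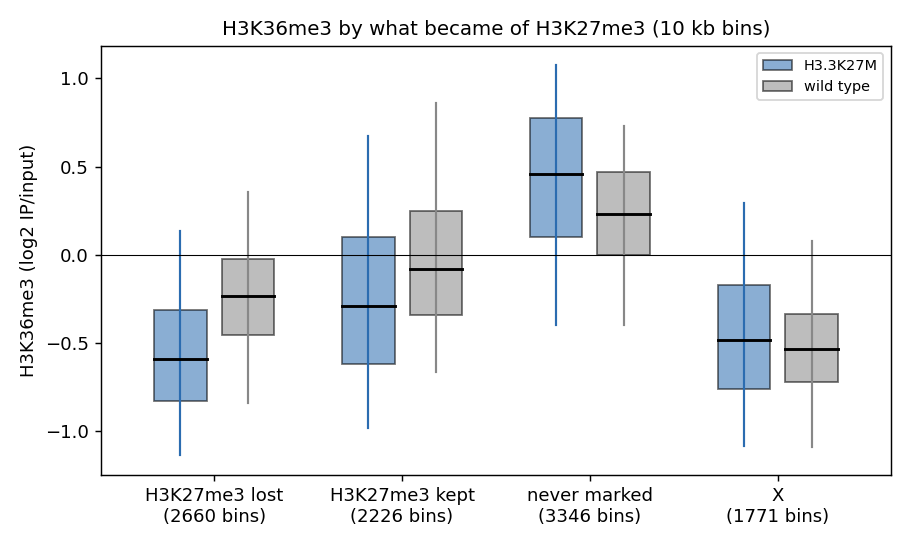
H3K36me3 (log2 IP over input, y axis) of 10 kb bins in H3.3K27M (blue, left) and wild type (grey, right), for autosomal bins by H3K27me3 class and for X; boxes span the quartiles, black lines are medians and thin lines reach from the 5th to the 95th percentile. Lost and kept bins lie lower in H3.3K27M (medians -0.59 and -0.29, against -0.23 and -0.08 in wild type), and never marked bins lie higher (0.46 against 0.23).

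Of the 676 lower bins, 512 (75.7%) were lost bins, and of the lost bins 19.2% were lower by at least 1.5-fold, against 6.74% over all bins. The share was 5.66% in the kept bins, 0.69% in the never marked bins and 0.73% on X. The 57 higher bins comprised 21 on X, 20 never marked, 13 lost and 3 kept bins. A higher H3K36me3 of that size was seen in 13 of the 2660 lost bins, or 0.49%, near the 0.569% over all bins. The share was 0.60% in never marked bins, 0.13% in kept bins and 1.19% on X.

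Each autosome showed the same order of signs. The median change of lost bins ran from -0.30 on chromosome II to -0.42 on chromosome V, that of kept bins from -0.19 on V to -0.38 on IV, and that of never marked bins from 0.17 on V to 0.28 on III. The numbers of bins in each class also differed between chromosomes. Chromosome IV, with the lowest median, had the most lost bins (815 of 1749) and 598 never marked bins, while chromosomes I and III had 881 and 793 never marked bins. Chromosome V held 1305 of the 2226 kept bins. Arms and centres differed within a class as well. Lost bins had a median change of -0.48 in the arms and -0.22 in the centres, and 452 of 1347 lost arm bins (33.6%) were lower by at least 1.5-fold against 60 of 1313 (4.57%) in the centres. The loss of H3K27me3 was similar in both places, with median changes of -1.42 in the arms and -1.38 in the centres. The H3K36me3 levels of lost bins were -0.58 in H3.3K27M and -0.09 in wild type in the arms, and -0.61 in H3.3K27M and -0.36 in wild type in the centres, so that arms and centres differed less in H3.3K27M. Kept bins had -0.26 in the arms and -0.20 in the centres, and never marked bins 0.24 and 0.26.

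The amount of H3K27me3 lost did not order the change of H3K36me3 among marked autosomal bins. When the 4886 bins with wild-type H3K27me3 above 0 were cut into 5 equal groups by the H3K27me3 change, from the deepest loss to the largest gain, the median H3K36me3 changes were -0.29, -0.37, -0.41, -0.28 and -0.13. The bins of deepest loss (median H3K27me3 change -1.87) thus differed less in H3K36me3 than those of the middle group (-0.54). From the deepest loss to the middle group, H3K36me3 levels were -0.57, -0.60 and -0.58 in H3.3K27M. In wild type they were -0.28, -0.20 and -0.18, so these groups lay closer together in H3.3K27M. In the 3367 unmarked autosomal bins the medians went up steadily, at 0.09, 0.17, 0.21, 0.30 and 0.37, and on X, where all 5 groups gained relative H3K27me3, at -0.14, -0.03 (0.09 after centring), 0.07, 0.15 and 0.30. Median H3K27me3 of the unmarked groups was -1.93, -1.94, -1.97, -2.24 and -2.24 in H3.3K27M. In wild type it was -0.29, -0.82, -1.41, -2.54 and -3.00, so the unmarked groups differed mainly in their wild-type level. Spearman's rho between both changes was 0.27 over the 8253 autosomal bins, 0.20 in marked and 0.52 in unmarked bins, and 0.59 on X. The sign is positive in each: bins that ranked lower in the change of one mark tended to rank lower in that of the other. The changes themselves did not always share a sign. Never marked bins had a median of -0.50 in H3K27me3 and 0.25 in H3K36me3, and kept bins 0.38 and -0.23. The medians were -1.40 and -0.34 in lost bins and 0.81 and 0.07 on X. These bins are neighbours on the same chromosomes and come from 1 library per strain and mark, so the coefficients are descriptions only.

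**Figure D3:**
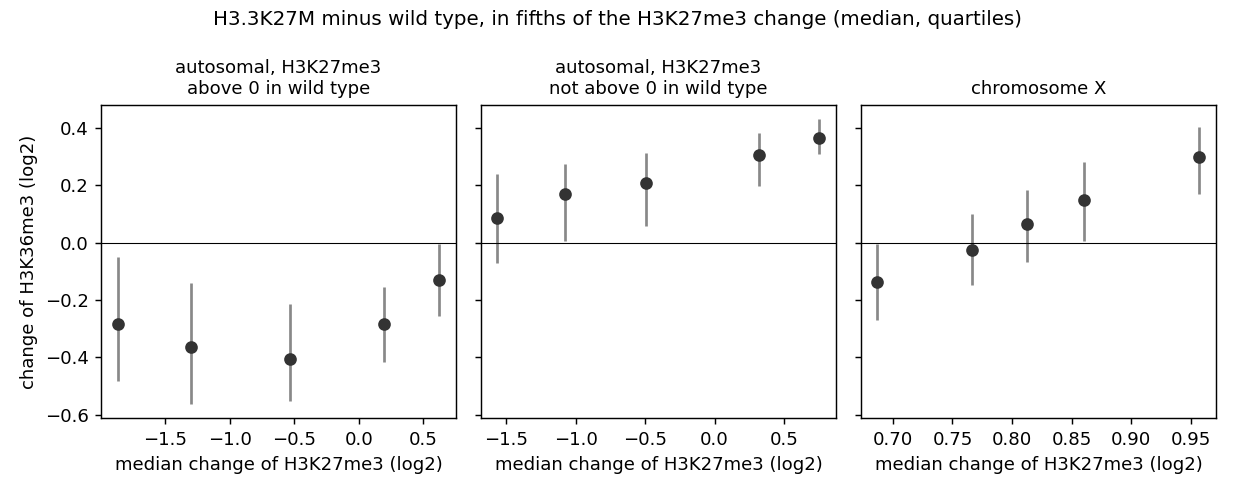
Median change of H3K36me3 (y axis, log2, H3.3K27M minus wild type; lines span the quartiles) in 5 equal groups of 10 kb bins by the change of H3K27me3 (x axis, log2, on a separate scale in each panel), for autosomal bins marked in wild type, autosomal bins not marked, and X. The marked bins form a trough with its lowest median at -0.41 in the middle group, while unmarked and X bins step upwards to 0.37 and 0.30. The groups of unmarked bins differ mainly in wild-type H3K27me3.

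On the autosomes, the H3K27me3 that a bin had in wild type tracked the H3K36me3 change more closely, with a Spearman rho of -0.70. On X it did not: the rho there was -0.36 with wild-type H3K27me3, against 0.59 with the H3K27me3 change. Likewise, H3K36me3 in H3.3K27M had a Pearson r of -0.68 with the wild-type H3K27me3 map over the autosomes, and of only -0.38 with the H3K27me3 map of H3.3K27M itself. In wild type, both marks of the same strain had an r of -0.43. H3K36me3 of the mutant thus followed the wild-type H3K27me3 map, in reverse, more closely than it followed the map of its own strain. By Spearman the gap was smaller, with a rho of -0.58 for the wild-type map and -0.46 for that of its own strain. Neighbouring bins and the same library pairs underlie each of these coefficients.

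Lost and never marked bins differ in wild-type H3K36me3, so the classes were also compared at equal wild-type level, in 8 strata 0.25 apart on the log2 scale with open ends. Lost bins were below never marked bins in 8 of 8 strata, by 0.27 to 0.82, and kept bins were below never marked bins in 8 of 8. Lost bins were below kept bins in 7 of 8. In the stratum from 0 to 0.25, for example, the median change was -0.47 in 399 lost bins, -0.25 in 403 kept bins and 0.21 in 908 never marked bins. In the richest stratum, above 0.75, the median change was -0.42 in 35 lost bins and 0.29 in 137 never marked bins, whose lower quartile was -0.03. Lost bins of the poorest stratum, below -0.75, had -0.09 (0.03 after centring). Bins of X were above lost bins in 8 of 8 strata, by 0.14 to 0.55. Above 0.25 in wild type the X medians were -0.07 (0.05 after centring), -0.22 and -0.23, over 26, 14 and 15 bins.

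**Figure D4:**
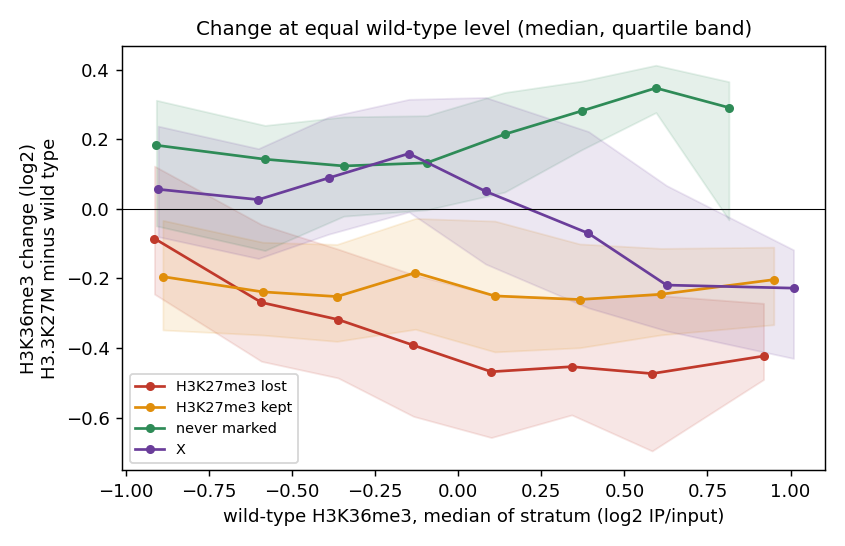
Median change of H3K36me3 (y axis, log2, H3.3K27M minus wild type, with a band over the quartiles) in strata of wild-type H3K36me3 (x axis, median of the stratum, log2 IP over input) for autosomal bins by H3K27me3 class and for X. Never marked bins lie above 0 and lost and kept bins below 0 in all 8 strata as deposited; after centring the poorest stratum of lost bins is at 0.03.

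The sharpest view came from the borders of wild-type H3K27me3 domains. A border was taken where a run of at least 10 kb with 1 kb H3K27me3 values above 0 met a run of at least 10 kb not above 0, single 1 kb gaps being closed. H3K36me3 was read there in 1 kb bins as log2 of IP over input from recovered reads, with medians of 342 IP and 241 input reads per bin in H3.3K27M and 407 and 396 in wild type. At the 1054 autosomal borders whose domain lost H3K27me3 in H3.3K27M, H3K36me3 over the 10 kb outside had a median of 0.75 in H3.3K27M and 0.47 in wild type. Over the 10 kb inside it had a median of -0.53 in H3.3K27M and -0.01 in wild type. The step from inside to outside had a median of 1.23 in H3.3K27M and 0.45 in wild type, and it was larger in H3.3K27M at 1042 of 1054 borders (98.9%). Between 2.5 kb outside and 0.5 kb inside, the median level in H3.3K27M dropped to -0.51, against 0.97 at the outer point, and in wild type the same points had -0.001 and 0.60. Farther in, both lines were flat, at -0.57 in H3.3K27M and 0.01 in wild type 9.5 kb from the border.

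Domains were sorted into lost and kept by their median H3K27me3 in H3.3K27M over the 10 kb inside. The step was also larger in H3.3K27M at kept domains. At their 184 autosomal borders, the step was 1.02 in H3.3K27M and 0.40 in wild type and was larger in H3.3K27M at 180 (97.8%). Next to these borders, however, H3K27me3 was not kept: its median in H3.3K27M was -0.95 at 0.5 kb inside and -0.20 at 1.5 kb. Wild type had 0.29 and 0.38 there. The median H3K36me3 change was -0.56 and -0.48 at these points. At 9.5 kb, where H3K27me3 was 0.76 in H3.3K27M, the H3K36me3 change was -0.26. Over the whole 10 kb, the change inside was -0.38 at kept domains and -0.52 at lost ones, and outside it was 0.24 at kept and 0.30 at lost ones. With the 1 kb tracks centred, the change inside was -0.13 at kept and -0.27 at lost domains, and outside it was 0.49 and 0.55. Which side of the border differed more thus depended on the zero point. The 22 borders on X had a step of 0.69 in H3.3K27M and 0.32 in wild type, larger in H3.3K27M at 20 (90.9%), but with another composition: the change was 0.44 outside and -0.05 inside (0.20 inside when the 1 kb tracks were centred). Across the autosomes, the share of lost-domain borders with the larger step ranged between 98.1% (chromosome I) and 99.5% (chromosome II). In arms these borders had a wild-type step of only 0.22 and a step of 1.09 in H3.3K27M, while in centres the step was 1.31 in H3.3K27M and 0.61 in wild type. Input reads alone had a median step of -0.02 in H3.3K27M and 0.001 in wild type at lost-domain borders. After quantile normalization the step was still larger in H3.3K27M at 992 of 1054 (94.1%), with a median difference of 0.46 instead of 0.78.

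**Figure D5:**
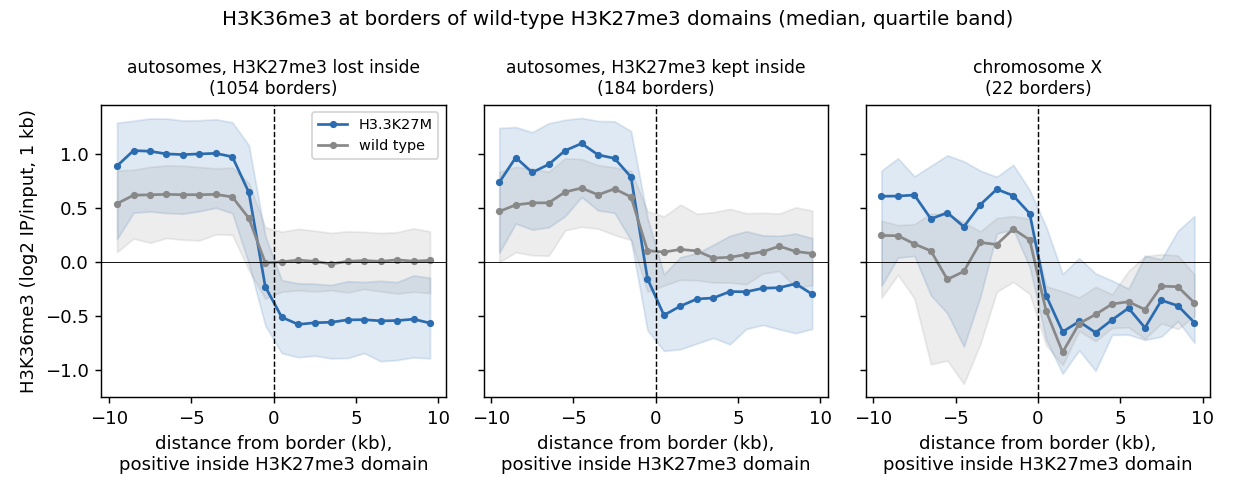
Median H3K36me3 in 1 kb bins (y axis, log2 IP over input, with a band over the quartiles) by distance from the border of a wild-type H3K27me3 domain (x axis, kb, positive inside the domain) in H3.3K27M (blue) and wild type (grey), for autosomal domains that lost H3K27me3, those that kept it, and X. At lost-domain borders H3.3K27M is above wild type outside (0.75 against 0.47) and below it inside (-0.53 against -0.01); on X the lines part mainly outside.

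The larger contrast was seen over the whole of the autosomes, and a difference between the strains in how strongly the IP enriched and a difference in the mark itself cannot be told apart with 1 library each. Over X the slope of H3.3K27M on wild type was 0.96, but the spread over X bins was also larger in H3.3K27M. The range from the 5th to the 95th percentile on X was 1.38 in H3.3K27M and 1.16 in wild type. The 55 X bins not marked by H3K27me3 in wild type had a median H3K36me3 of 0.06 in H3.3K27M and -0.22 in wild type, while the 1716 marked X bins had -0.50 in H3.3K27M and -0.54 in wild type. The share of X bins above input was 15.4% in H3.3K27M and 6.61% in wild type. On the autosomes that share was 8.27% in H3.3K27M and 22.7% in wild type in lost bins, and 80.9% in H3.3K27M and 74.96% in wild type in never marked bins.

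The position of the histone itself was available from an OLLAS-tagged H3.3K27M strain, separate from the worms used for H3K36me3. In 5 equal groups of autosomal bins from low to high oncohistone, the median H3K36me3 change was -0.23, -0.19, 0.02, 0.10 and 0.10 (after centring -0.11, -0.07, 0.14, 0.22 and 0.22). On X the groups had 0.01, 0.01, 0.05, 0.10 and 0.18. The Spearman rho was 0.27 over autosomal bins and 0.20 over X bins. Autosomal bins with the lowest oncohistone levels were also those with high H3K27me3, at a median of 0.78 in H3.3K27M and 0.41 in wild type. The share of bins lower by at least 1.5-fold was 9.69% in both the lowest and the highest group, against 8.03% over all autosomal bins. The groups between had 6.67%, 5.94% and 8.18%.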

How the data were processed

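The deposited tracks used here were 12 of 27. The other 15 were not used, and 4 of those matched no described library. Per the study's methods, the authors mapped paired-end reads with Novoalign (version not given in the sources used here) to WBcel215, took the maximum number of reads in each bin, brought every file to an equal read number and pooled replicates, whose number is not stated. They deposited log2 of IP over input in 10 kb and 1 kb bins, and input-subtracted signal in 100 bp bins. Bins with few reads weigh more in the log2 ratio, and bins with many reads weigh more in the difference.

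Here, bins were matched by chromosome and start, and mitochondrial bins were left out. Whole IP and input reads were recovered from the input-subtracted tracks, using the worth of 1 read (2.68 for IP and 4.38 for input in H3.3K27M, 2.68 and 2.71 in wild type). This solved 99.99% of the 100 bp bins of H3.3K27M and 99.98% of those of wild type, and its log2 ratio, with 1 scaled read added to each side, had a Pearson r of 0.99 with the deposited one in both strains. Median depth per 100 bp was 33 IP and 24 input reads in H3.3K27M and 40 and 39 in wild type. The recovery and the summaries were tested on simulated data. Values of exactly 0 in 20 bins of the H3.3K27M log2 track and 18 of the wild-type one were kept.

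Groups followed strain and antibody labels, 1 library each, so medians, percentiles and counts were computed without tests (Python 3.11.15, numpy 2.4.6, pandas 2.3.3, scipy 1.17.1). Named regions were the 5 longest runs of bins at least 1.5-fold higher and lower, the 5 single bins with the largest change each way, and the 5 farthest apart after input subtraction. The alternatives were recovered reads, IP alone, input-subtracted values, quantile normalization, centring, other folds, other definitions of arm and loss, filters on input, and leaving out a chromosome. Members, lists and comparisons were chosen with earlier results of these data known. No gene annotation or genome of WBcel215 was used here, so regions carry no gene names or sequences.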

Additional observations from a re-analysis of the deposited data

How the results depend on the processing

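No paired analysis was possible because each strain had 1 library per antibody. An alternative counted as keeping a value when the sign held and the value stayed within 1.5 times (for input-subtracted medians, the sign alone). Of 96 alternatives over 10 results, 71 kept the value, 25 moved it and 0 reversed it; the difference between arms and centres was kept in all 8 of its alternatives. Quantile normalization moved X minus autosomes to 0.24 (0.15 as deposited), lost minus other autosomal bins to -0.25 (-0.41), the rho of both changes to 0.13 (0.27), the border difference to 0.46 (0.78) and the calls to 147 higher and 349 lower bins. It also moved lost minus never marked bins to -0.33 (-0.59). Centring gave 340 higher and 298 lower. Recovered reads gave 1164 lower bins and IP alone gave 167 higher ones. A threshold of 0.32 on the log2 scale gave 1546 higher and 2331 lower bins, and a fold of 2 gave 2 and 14. Taking a drop of more than 1 in H3K27me3 as loss, which counts unmarked bins as well, moved lost minus other bins to -0.11. The rho was 0.12 in centres alone and 0.45 in arms alone. The r of the input-subtracted tracks was 0.40, and 0.82 without 1 bin. The difference between lost and kept bins, -0.12, was the least steady: -0.05 without chromosome V, -0.02 in centres, -0.22 in arms, -0.05 after quantile normalization, -0.22 with recovered reads and -0.23 with IP alone. Except where shown, the cause was not tested. The filter on bins under 100 reads, the matching on wild-type level, both comparisons of lost with kept and never marked bins, the r without 1 bin and the border alternatives were chosen after seeing the data. Pooled replicates of unstated number, mixed nuclei, a zero point set by scaling and a lower input depth in H3.3K27M limit all values.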
